A study of Homo sapiens with 11 samples.

Results

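The genes described here are 37 genes of the ATF4 response and of protein folding in the endoplasmic reticulum (ER), taken by symbol from the 33080 genes of each deposited table. They form an ATF4 arm of 17 genes and an ER arm of 20 genes, the ER arm holding 4 sensors and transcription factors and 16 chaperones and their helpers. All 37 symbols were found. Gene-level RNA sequencing had been done on 11 libraries of 769-P, a human clear-cell renal carcinoma line. There were 4 libraries with a second siRNA against AKR1A1 (si2), 3 with a first one (si1) and 4 with a control siRNA (siSCR). All were transfected for 48 h with RNAiMAX, a lipid reagent, and the siRNA was labelled at 20 µM. The labels give the genotype AKR1A1-/- for si1 and si2 and wild-type for siSCR, while the protocol describes siRNA transfection and no edited clone. Nothing in the labels says that replicates came from separate cultures, so the p-values reflect the spread between these libraries and that spread may be technical.

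ATF4 is a transcription factor of the integrated stress response. Phosphorylation of the initiation factor eIF2alpha by stress kinases, PERK (EIF2AK3) at the ER among them, slows most translation while ATF4 mRNA is translated more, so much of the control of ATF4 lies outside its mRNA level. ATF4 drives genes of amino acid synthesis, amino acid uptake, redox balance and cell death. The unfolded protein response has further branches: IRE1 (ERN1) splices XBP1 mRNA, and ATF6 is released from the ER membrane by cleavage, and both drive ER chaperones and the degradation of misfolded ER proteins.

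Short promoter motifs known for these branches were looked up in the 250 bases before the annotated starts, on both strands, in RefSeq sequence of GRCh38.p14. Of the 37 members 33 had a window. The ER stress response element (ERSE) was searched as CCAAT, any 9 bases and CCACG. It was found in 7 of 19 ER-arm genes with a window (XBP1, HSPA5, HSP90B1, CALR, CANX, PDIA6 and CRELD2), in 0 of 14 ATF4-arm genes, and in 0.0916% of all 27305 genes with a window. The shorter ERSE-II, searched as ATTGGNCCACG, was found in SDF2L1, HERPUD1 and HYOU1, against 0.0659% of all genes. The amino acid response element bound by ATF4 with C/EBP partners, searched as TGATGNAA, was found in 3 of 14 ATF4-arm genes (ATF3, CHAC1 and ASNS) and 1 of 19 ER-arm genes (HERPUD1), against 3.89% of all genes. The cAMP response element TGACGTCA was found in PPP1R15A (2.03% of all genes), and TGACGTGG, the unfolded protein response element, in HYOU1 (0.780% of all genes), where it overlapped an ERSE-II. A match is a match of letters, and no binding was measured. The sites of 6 members are printed because they are a sequence feature that sets the arms side by side, and the letters between the searched parts differ from gene to gene. Each is written on the strand that reads the motif, with 6 bases on each side and the searched letters in capitals.
HSPA5 (chr9:125241391-125241409, 48 to 66 bases before the start): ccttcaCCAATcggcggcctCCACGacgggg
HSP90B1 (chr12:103930216-103930234): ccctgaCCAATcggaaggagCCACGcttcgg
PDIA6 (chr2:10812853-10812871): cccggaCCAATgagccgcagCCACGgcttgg
XBP1 (chr22:28800603-28800621): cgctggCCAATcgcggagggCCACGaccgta
ASNS (chr7:97872469-97872476): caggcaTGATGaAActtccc
CHAC1 (chr15:40953262-40953269): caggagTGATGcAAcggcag

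CALR and HERPUD1, whose levels take up much of what follows, carry both kinds of element between them. Their whole windows are printed on the strand of the gene. In CALR the capitals mark the ERSE, which reads on the opposite strand. In HERPUD1 they mark first the ATF4 element, on the opposite strand, and then the ERSE-II.
CALR (chr19:12938359-12938608, plus strand): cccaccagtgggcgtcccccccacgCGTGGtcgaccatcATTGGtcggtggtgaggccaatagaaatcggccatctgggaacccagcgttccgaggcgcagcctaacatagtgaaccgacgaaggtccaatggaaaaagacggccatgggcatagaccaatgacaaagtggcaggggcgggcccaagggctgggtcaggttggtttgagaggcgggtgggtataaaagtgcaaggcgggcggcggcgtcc
HERPUD1 (chr16:56931892-56932141, plus strand): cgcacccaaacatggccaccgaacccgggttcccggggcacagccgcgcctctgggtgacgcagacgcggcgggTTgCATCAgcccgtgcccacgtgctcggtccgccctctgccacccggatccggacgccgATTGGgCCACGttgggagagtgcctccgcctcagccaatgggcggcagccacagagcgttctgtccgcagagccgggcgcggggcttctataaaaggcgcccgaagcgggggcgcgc

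Libraries held 2958944 to 5939514 reads on genes in si2, 2108546 to 3880155 in si1 and 2271348 to 3836109 in siSCR. AKR1A1, the target, was at 56.6, 32.1, 48.3 and 46.1 normalized counts in si2 and at 81.7, 23.6 and 45.1 in si1, against 390, 256, 200 and 242 in siSCR. By limma this was a log2 fold change of -2.53 (SE 0.24, adjusted p = 0.00218) for si2 and of -2.54 (SE 0.42, adjusted p = 0.0357) for si1 against siSCR. The si1 call was lost without a filter (adjusted p = 0.0871), with a replicate block (0.147) and on leaving out any 1 library other than siSCR 1 (0.0659 to 0.126), with the fold change negative throughout. Mitochondrially encoded transcripts took 4.59% to 5.12% of the reads in si2 and 6.57% to 11.1% in si1, against 12.1% in siSCR 1 and 3.46% to 4.46% in the other siSCR libraries. Of 10 renal epithelial markers 7 reached 10 normalized counts in 3 libraries, among them PAX8 and PAX2, with CA9 at 0 throughout. All 5 endothelial markers were at 0 in every library, and CD68 and COL1A1 were the only leukocyte and fibroblast markers past that level.

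Per length, as TPM (transcript share scaled by exon length), the members spanned the whole range of expression in siSCR. The lectin chaperone CALR (984 ± 393 TPM, SD, n = 4), the main ER chaperone HSPA5 (803 ± 202), CALR's lectin relative CANX (666 ± 108) and the ER HSP90 paralog HSP90B1 (568 ± 162) stood highest in the ER arm. ATF4 (362 ± 41.5 TPM) stood highest in its own arm, followed by SESN2 (103 ± 23.5) and SHMT2 (97.9 ± 23.1). At the other end were PHGDH, the first enzyme of serine synthesis (1.00 ± 0.322 TPM), ERN1 (0.532 ± 0.212) and NUPR1, a stress-induced chromatin protein (0.255 ± 0.295). NUPR1 had 0 to 5 reads per library and ERN1 2 to 19, and neither passed the low-count filter in any comparison. PHGDH passed in the comparisons with si2, at 10.7 ± 4.59 normalized counts in si2 and 3.84 ± 3.56 (n = 3) in si1, against 10.2 ± 2.36 in siSCR (SD, n = 4).

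In the ATF4 arm with si2, SHMT2 was lower and TRIB3 higher than in siSCR by the widest margins for their spread, short of the threshold. Of 16 members tested against siSCR, 0 were called by limma at an adjusted p under 0.05, where 3.12% of all 10249 genes tested were. At an unadjusted p under 0.05 there were 4 members, TRIB3, PSPH, SHMT2 and MTHFD2, a share of 25.0% against 19.6% of all genes. The median log2 fold change was 0.07, against -0.01 over all genes, with 9 members above 0 and 7 below. Groups without overlap were seen for PSPH, higher, and SHMT2, lower, where 12.6% of all genes showed none. For 12 of the 16 members the 95% interval lay within 1 log2 unit of 0. Weighted fitting on the recovered reads (voom) called 1 of the 16 members, SHMT2 (adjusted p = 0.0239). Its share of all genes called was of the same order as the 3.12% by limma. In the authors' deposited table SHMT2 alone of these 17 members was below 0.05, as were 1.87% of all 33080 genes. That base is unlike the filtered one used above, since only 17626 genes had a read in some library.

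With si1, more of the ATF4 arm lay away from the control libraries, in both directions. Of 15 members tested 0 were called by limma, where 1.72% of all 10517 genes were, and 8 had an unadjusted p under 0.05, a share of 53.3% against 23.9% of all genes. The median was -0.04, against -0.03 over all genes, with 7 members above 0 and 8 below. The si1 libraries all lay above all siSCR libraries for TRIB3, STC2, PSAT1, PSPH and CEBPB and below them for SHMT2, that is 6 of 15 members, where 21.7% of all genes showed no overlap. The 95% interval lay within 1 log2 unit of 0 for 5 of the 15. Voom called 1 of the 15 members, TRIB3, and 582 of all 10517 genes. In the authors' deposited table TRIB3, PSPH and SHMT2 were below 0.05, as were 3.17% of all 33080 genes, a base that again holds genes without reads.

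**Figure D1:**
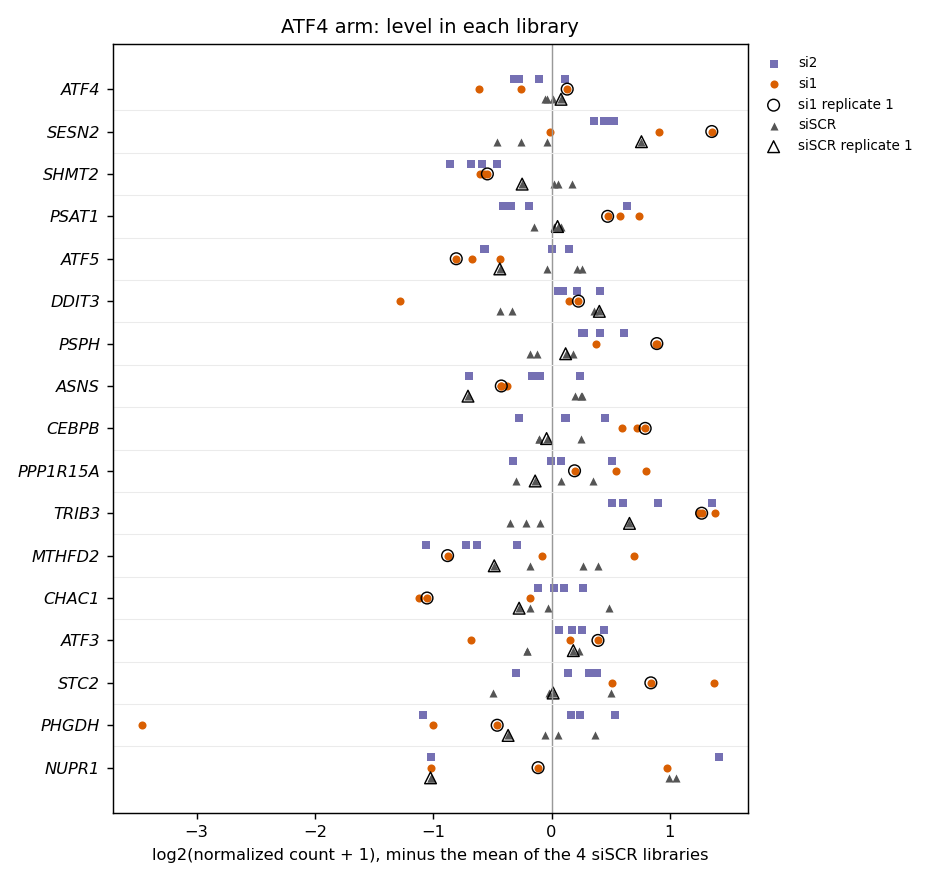
Level of each ATF4-arm gene in each of the 11 libraries, as log2(normalized count + 1) minus the mean of the 4 siSCR libraries, with genes ordered by level per length in siSCR. TRIB3 points of si1 and si2 lie right of 0 and SHMT2 points left of 0, and the ringed replicate 1 libraries of si1 and siSCR lie at the high end of their groups for SESN2, and siSCR 1 lies far below the other controls for ASNS.

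ATF4 mRNA itself was 1114, 849, 824 and 955 normalized counts in si2 and 1128, 670 and 858 in si1, against 1087, 1036, 992 and 1001 in siSCR. The siRNA libraries spread to both sides of the narrow control range. The log2 fold change was -0.15 (95% interval -0.49 to 0.19) for si2 and -0.25 (-0.74 to 0.24) for si1. GENCODE lists 4 pseudogene copies of ATF4, with which reads may be shared.

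TRIB3, a pseudokinase induced by ATF4 that restrains ATF4 and AKT signalling, had the largest positive fold change of the arm with both siRNAs. It was at 104, 112, 188 and 137 normalized counts in si2 and at 177, 175 and 192 in si1, against 116, 68.4, 62.8 and 57.0 in siSCR. All si1 libraries lay above all controls, and in si2 the groups overlapped through siSCR 1, the highest control. Against siSCR the log2 fold change was 0.84 (SE 0.26, adjusted p = 0.117) for si2 and 1.30 (SE 0.26, adjusted p = 0.0565) for si1. Without siSCR 1 it was called with both, at 1.06 (adjusted p = 0.0139) for si2 and 1.52 (adjusted p = 0.00821) for si1. Across all alternatives the adjusted p for si1 ranged from 0.00821 to 0.169.

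DDIT3, the transcription factor CHOP, is another ATF4 target tied to cell death. It was at 52.2, 65.0, 50.4 and 56.5 normalized counts in si2 and at 57.1, 19.4 and 54.1 in si1, against 64.6, 38.5, 62.8 and 35.7 in siSCR. Apart from si1 2, well below the control range, and si2 2, just above it, the siRNA libraries lay within that range. The log2 fold changes were 0.19 (95% interval -0.31 to 0.69) for si2 and -0.30 (-1.27 to 0.67) for si1. DDIT3 shares 27.2% of its exon bases with MARS on the opposite strand, and without a stated strand setting their reads cannot be told apart. PPP1R15A, the phosphatase subunit that reverses eIF2alpha phosphorylation, had a log2 fold change of 0.07 (95% interval -0.42 to 0.55) for si2 and 0.51 (-0.03 to 1.05) for si1. ATF3, an early stress factor (log2 fold change 0.23 for si2 and -0.04 for si1), gave adjusted p = 0.495 and 0.941.

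CEBPB, a bZIP factor that pairs with ATF4, was at 40.7, 53.8, 53.6 and 67.9 normalized counts in si2 and at 86.1, 81.9 and 75.1 in si1, against 47.9, 58.8, 45.8 and 45.8 in siSCR. The si1 libraries stood above every other library, and si2 and siSCR overlapped. On the log2 scale the difference was 0.11 (SE 0.19, adjusted p = 0.806) for si2, 0.70 (SE 0.18, adjusted p = 0.0747) for si1, and -0.60 (SE 0.21, adjusted p = 0.121) for si2 against si1. STC2, a secreted glycoprotein induced by ER stress, showed the same order at low counts, with 10.6, 16.9, 14.7 and 17.6 in si2 and 24.6, 19.4 and 36.1 in si1, against 13.4, 19.2, 13.1 and 9.17 in siSCR. It rested on 9 to 34 reads per library, and its log2 fold change was 0.91 (SE 0.30, adjusted p = 0.128) for si1 and 0.13 (SE 0.24, adjusted p = 0.808) for si2.

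CHAC1, an enzyme that breaks down glutathione, lay the other way with si1. It was at 17.7, 16.0, 18.9 and 21.3 normalized counts in si2 and at 7.90, 15.3 and 7.51 in si1, against 14.3, 17.1, 24.9 and 15.3 in siSCR. All si2 libraries lay above all si1 libraries, on 5 to 41 reads per library. The log2 fold change was -0.78 (SE 0.30, adjusted p = 0.169) for si1 against siSCR and 0.85 (SE 0.26, adjusted p = 0.0873) for si2 against si1. The difference between the siRNAs was called without si1 2, with adjusted p = 0.0168. The si1 libraries left in that fit were at 7.90 and 7.51 normalized counts, on 9 and 5 reads. CHAC1 therefore passed the low-count filter there through si2 alone, and the size of the difference rested on those few si1 reads. Under other alternatives the adjusted p of CHAC1 in si2 against si1 reached 0.668. SESN2, which restrains mTORC1 when leucine is low, was at 574, 539, 508 and 554 in si2 and at 1016, 394 and 744 in si1, against 672, 331, 288 and 386 in siSCR. Both replicate 1 libraries, si1 1 and siSCR 1, were the highest of their groups. Its log2 fold change was 0.45 (SE 0.25, adjusted p = 0.349) for si2 and 0.75 (SE 0.40, adjusted p = 0.283) for si1. Without siSCR 1 SESN2 was called with si2, at 0.71 (adjusted p = 0.0163), and under other alternatives its adjusted p reached 0.602.

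The amino acid enzymes of the arm did not go one way. ASNS, the asparagine synthetase and a textbook ATF4 target, was at 149, 112, 76.7 and 117 normalized counts in si2 and at 93.1, 93.0 and 96.2 in si1, against 76.4, 144, 149 and 150 in siSCR. The 3 si1 libraries were nearly equal and lay below 3 of the 4 controls, siSCR 1 being the lowest library of all. Against siSCR the log2 fold change was -0.18 (95% interval -0.78 to 0.42) for si2 and -0.41 (-1.04 to 0.22) for si1. Without siSCR 1 ASNS was called with si1, at -0.65 (adjusted p = 0.0392), and under other alternatives its adjusted p reached 0.601. PSPH, the last enzyme of serine synthesis, was at 118, 131, 118 and 150 in si2 and at 183, 182 and 128 in si1, against 107, 111, 90.3 and 86.6 in siSCR. Every siRNA library lay above every control, with a log2 fold change of 0.39 (SE 0.16, adjusted p = 0.217) for si2 and 0.72 (SE 0.21, adjusted p = 0.107) for si1. Groups without overlap were seen for 12.6% of all genes with si2 and 21.7% with si1. PSAT1, the enzyme before it, was chosen for mention after its values were seen: it had 0.60 (SE 0.17, adjusted p = 0.1) for si1 and -0.08 (SE 0.23, adjusted p = 0.894) for si2.

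SHMT2, the mitochondrial serine hydroxymethyltransferase, was likewise chosen after its values were seen. It was at 289, 327, 349 and 380 normalized counts in si2 and at 360, 344 and 353 in si1, against 442, 545, 534 and 591 in siSCR. Every siRNA library lay below every control, siSCR 1 being the lowest control. Of all genes 12.6% showed no overlap with si2 and 21.7% with si1. On the log2 scale the difference was -0.65 (SE 0.16, adjusted p = 0.0586) for si2 and -0.57 (SE 0.17, adjusted p = 0.113) for si1. In the authors' deposited table SHMT2 had -0.61 (adjusted p = 0.00218) for si2 and -0.56 (adjusted p = 0.0216) for si1. The comparisons share their control libraries, so the values with si2 and si1 are not independent. MTHFD2, its partner in mitochondrial folate metabolism, was at 32.1 ± 7.26 in si2 and 52.9 ± 28.3 (n = 3) in si1, against 52.4 ± 14.4 in siSCR (SD, n = 4), and shares 27.2% of its exon bases with SLC4A5 on the opposite strand.

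**Figure D2:**
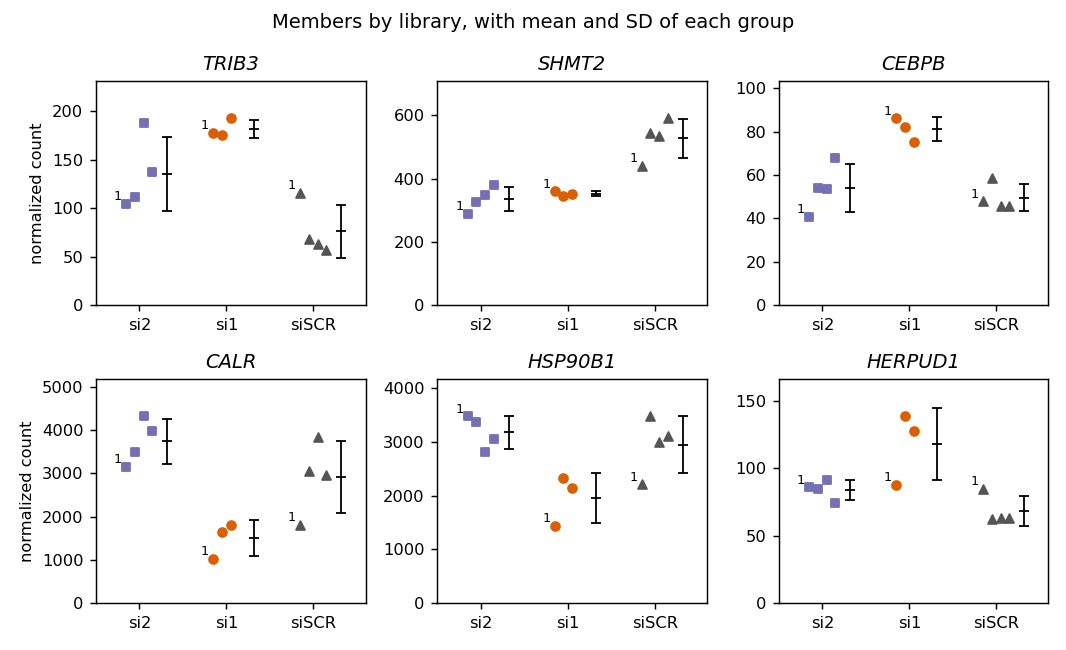
Normalized counts of 6 members in si2, si1 and siSCR, one point per library, with the mean and SD of each group beside the points and replicate 1 marked. TRIB3 and CEBPB stand highest in si1, SHMT2 is lower in every siRNA library than in siSCR, and CALR and HSP90B1 are lowest in si1, where si1 1 and, among the controls, siSCR 1 are the lowest of their groups.

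In the ER arm, 1 gene was called, CALR, between si2 and si1, and 0 with either siRNA against siSCR. In si2 its chaperones lay near the control level, and in si1 most lay below it, CALR by the widest margin among those above 100 normalized counts. Of the 20 members 19 were tested in each comparison. With si2 against siSCR limma called 0, and 2 had an unadjusted p under 0.05, PDIA6 and DNAJC3, which is 10.5% against 19.6% of all genes. The median was 0.13 against -0.01 over all genes, 13 members were above 0, and for 17 of 19 the 95% interval lay within 1 log2 unit of 0. DNAJC3, ATF6 and PDIA6 lay above every control, where 12.6% of all genes showed groups without overlap. With si1 against siSCR limma called 0, and 4 had an unadjusted p under 0.05, HERPUD1, EIF2AK3, CALR and HSP90B1, which is 21.1% against 23.9% of all genes. The median was -0.12 against -0.03, and 13 of 19 were below 0. HERPUD1 and EIF2AK3 lay above every control, where 21.7% of all genes showed groups without overlap. Over all genes limma called 1.72% with si1 and 3.12% with si2. Voom called 0 members with either siRNA. It called 582 of all 10517 genes with si1 and a share of the same order as limma's with si2. In the authors' deposited table PDIA6 was below 0.05 with si2 and CALR with si1, as were 1.87% and 3.17% of all 33080 genes.

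Among the 16 chaperones and helpers, 12 had a negative fold change with si1 against siSCR, with a median of -0.36, and 12 a positive one with si2, with a median of 0.13. In si2 against si1, 15 of the 16 were above 0, with a median of 0.42 against 0.03 over all genes. For the ER arm as a whole that median was 0.35, and it ranged from 0.05 to 0.52 across the alternatives. Limma called 1 of the 19 ER-arm members in that comparison, CALR, where 6.74% of all 10448 genes were called, and 6 of 19 (31.6%) had an unadjusted p under 0.05, against 25.4% of all genes. Of the 19, 6 showed groups without overlap (HSPA5, DNAJB11, PDIA6, HSP90B1 and CALR higher in si2, EIF2AK3 lower), where 25.0% of all genes did. In the ATF4 arm limma called 0 of 16 in si2 against si1 and voom 0, where voom called 1172 of all 10448 genes. There were 4 (25.0%) at an unadjusted p under 0.05, against the same 25.4% of all genes, and the median was -0.19. Fewer cells that express a gene and less RNA per cell cannot be told apart in such bulk libraries.

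**Figure D3:**
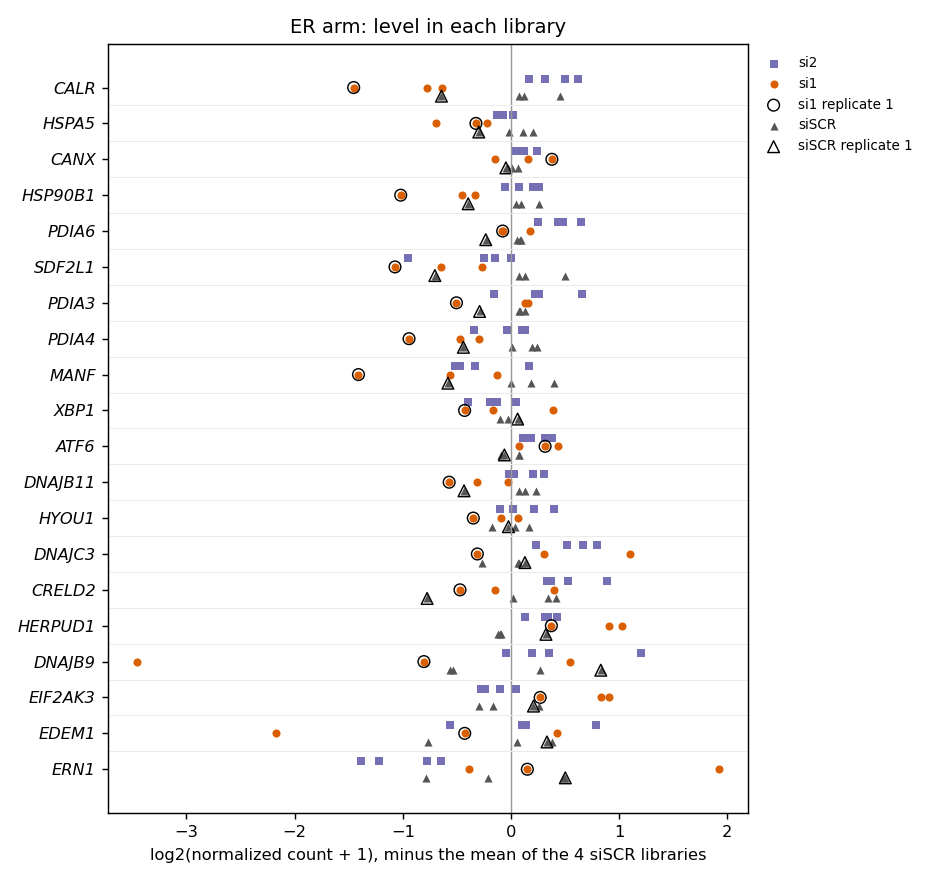
Level of each ER-arm gene in each library, as log2(normalized count + 1) minus the mean of the 4 siSCR libraries, with genes ordered by level per length in siSCR. For CALR, HSP90B1, PDIA4 and MANF the si1 points lie left of 0 and si1 1 and siSCR 1, ringed, lie leftmost in their groups, while HERPUD1 points of si1 lie right of 0.

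CALR, a calcium-binding lectin chaperone, was at 3149, 3496, 4326 and 3982 normalized counts in si2 and at 1027, 1646 and 1814 in si1, against 1802, 3065, 3842 and 2956 in siSCR. The groups si2 and si1 lay far apart, and siSCR 1 fell at the top of the si1 range. CALR was higher in si2 than in si1, with a log2 difference of 1.35 (SE 0.24, adjusted p = 0.0207) or 2.55-fold. Against siSCR it was 0.40 (SE 0.23, adjusted p = 0.384) for si2 and -0.95 (SE 0.32, adjusted p = 0.130) for si1. Without siSCR 1 it was called with si1, at -1.17 (adjusted p = 0.0349), and under other alternatives its adjusted p with si1 reached 0.286. The call between the siRNAs was lost without si2 1, si2 2 or si2 4, with adjusted p = 0.0502, 0.0602 and 0.0709, and likewise without a filter (0.0572), without both replicate 1 libraries (0.0794) and with a replicate block (0.115). It was also lost in a fit that held the mitochondrial share as a term, at 0.70 (adjusted p = 0.216), a share on which si2 and si1 did not overlap.

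HSPA5, the ER chaperone BiP, was at 3298, 3175, 3273 and 3511 normalized counts in si2 and at 2765, 2134 and 2968 in si1, against 2816, 3990, 3409 and 3748 in siSCR. Every si2 library lay above every si1 library, and the controls overlapped with both. The log2 fold change was -0.06 (95% interval -0.41 to 0.29) for si2, -0.41 (-0.90 to 0.07) for si1 and 0.35 (-0.06 to 0.76) for si2 against si1. HSP90B1, chosen after its values were seen, was at 3478, 3365, 2805 and 3063 in si2 and at 1437, 2320 and 2134 in si1, against 2215, 3483, 3007 and 3105 in siSCR. It differed by 0.72 (SE 0.22, adjusted p = 0.0850) between si2 and si1. Voom called that difference (adjusted p = 0.0175), as it did for 1172 of all 10448 genes. CANX, a membrane-bound relative of CALR, did not follow CALR's order: it was at 5106 ± 283 in si2 and 5152 ± 932 (n = 3) in si1, against 4665 ± 165 in siSCR (SD, n = 4), with 95% intervals of -0.17 to 0.43 for si2 and -0.30 to 0.56 for si1 against siSCR.

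MANF, a secreted protein that is retained in the ER with calcium, was at 180, 186, 291 and 205 normalized counts in si2 and at 96.6, 175 and 236 in si1, against 172, 294, 341 and 258 in siSCR. All 3 groups overlapped, with si1 1 lowest. Against siSCR the log2 fold change was -0.29 (SE 0.24, adjusted p = 0.560) for si2 and -0.70 (SE 0.36, adjusted p = 0.265) for si1. Among the disulfide isomerases, PDIA6 had a log2 fold change of 0.45 (SE 0.16, adjusted p = 0.149) for si2, and PDIA4 had -0.57 (SE 0.25, adjusted p = 0.214) for si1. PDIA6 shares 25.2% of its exon bases with ATP6V1C2 on the opposite strand. PDIA3 (95% interval -0.20 to 0.69 for si2 and -0.60 to 0.46 for si1) showed no difference past its spread. Of the co-chaperones of HSPA5, DNAJC3 had 0.55 (SE 0.18, adjusted p = 0.122) for si2, DNAJB11 0.43 (SE 0.20, adjusted p = 0.212) for si2 against si1, and SDF2L1 -0.66 (SE 0.32, adjusted p = 0.252) for si1. The intervals of HYOU1, an exchange factor of HSPA5, were -0.23 to 0.50 for si2 and -0.55 to 0.30 for si1, and CRELD2 gave -0.06 to 1.12 and -0.87 to 0.73.

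HERPUD1, a membrane protein of the ER degradation machinery, lay the other way from most chaperones in si1. It was at 85.8, 84.3, 91.4 and 74.1 normalized counts in si2 and at 87.8, 139 and 128 in si1, against 84.8, 62.0, 62.8 and 63.1 in siSCR. The si1 libraries all lay above the controls, of which siSCR 1 was the highest. On the log2 scale the difference was 0.30 (SE 0.16, adjusted p = 0.340) for si2 and 0.77 (SE 0.23, adjusted p = 0.109) for si1. Without siSCR 1 HERPUD1 was called with si1, at 0.88 (adjusted p = 0.0442), and under other alternatives its adjusted p reached 0.261. DNAJB9 and EDEM1, textbook targets of spliced XBP1, were too shallow to place. DNAJB9, an HSPA5 co-chaperone, was at 11.5, 9.63, 24.2 and 13.0 in si2 and at 5.27, 0 and 15.03 in si1, against 18.5, 6.41, 6.54 and 12.2 in siSCR, with intervals of -0.38 to 1.23 for si2 and -3.23 to 0.76 for si1. EDEM1, which hands misfolded glycoproteins to degradation, had 1 to 22 reads per library and intervals of -0.60 to 0.84 and -2.10 to 0.64. A difference of either gene was not detectable at this depth.

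Of the sensors, EIF2AK3 (PERK) was at 14.2, 16.0, 17.9 and 14.5 normalized counts in si2 and at 21.1, 33.3 and 31.6 in si1, against 20.1, 13.9, 20.9 and 15.3 in siSCR. The si1 libraries lay above all others, on 13 to 28 reads per library, and 14.4% of the exon bases of EIF2AK3 lie opposite another gene. The log2 fold change was -0.14 (SE 0.18, adjusted p = 0.719) for si2, 0.67 (SE 0.24, adjusted p = 0.153) for si1 and -0.81 (SE 0.21, adjusted p = 0.0587) for si2 against si1. ATF6 had 0.25 (95% interval -0.07 to 0.57) for si2 and 0.27 (-0.13 to 0.67) for si1. XBP1 was at 103, 124, 140 and 118 in si2 and at 100, 178 and 120 in si1, against 141, 142, 126 and 132 in siSCR, and only si1 2 lay above the controls. Its intervals were -0.51 to 0.17 for si2 and -0.59 to 0.46 for si1. The gene counts do not separate the spliced and unspliced forms of XBP1.

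**Figure D4:**
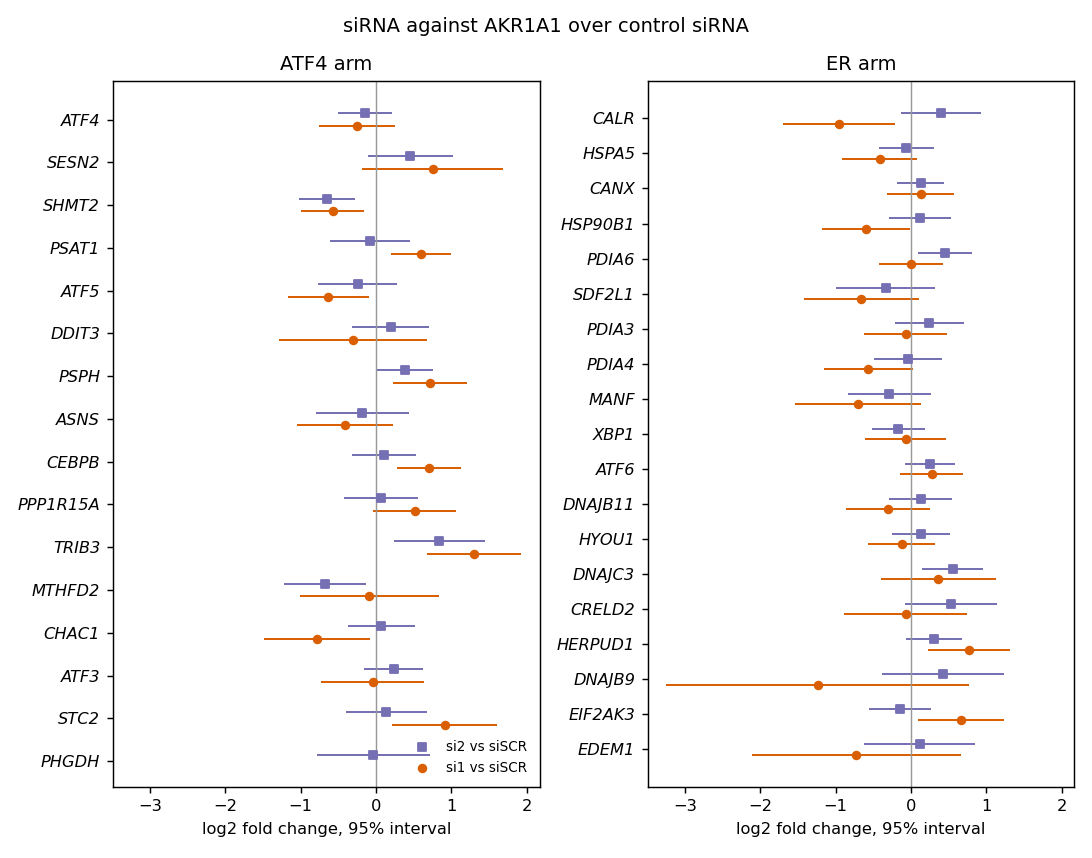
Log2 fold change against siSCR with its 95% interval from limma, si2 above si1 for each gene, ATF4 arm left and ER arm right. The intervals of TRIB3 lie right of 0 and those of SHMT2 left of 0 with both siRNAs, and that of CALR lies left of 0 with si1 and spans 0 with si2.

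The replicate 1 libraries bear on these values. siSCR 1 was the lowest control for 11 of the 16 chaperones, where it was the lowest for 36.4% of all genes, and si1 1 was the lowest si1 library for 11 of 16, against 33.2% of all genes. These libraries had the highest mitochondrial shares of their groups (12.1% and 11.1%). The share was 4.59% to 5.12% in si2 and 6.57% to 11.1% in si1, without overlap. In the fit with that share as a term, its effect on CALR and that of the siRNA therefore cannot be told apart. The mean log2 level of the 16 chaperones, each centred over the 11 libraries, was 0.17, 0.25, 0.15 and 0.23 in si2 and -0.54, -0.44 and 0.08 in si1, against -0.18, 0.07, 0.14 and 0.07 in siSCR. All 4 si2 libraries stood above the si1 libraries and, by a small margin, above the controls, while si1 and the controls overlapped. DNAJB9 and EDEM1, both in that mean, had 0 and 1 reads in si1 2. For the 15 ATF4-arm genes tested throughout, the mean was -0.17, -0.03, 0.02 and 0.09 in si2 and 0.13, 0.06 and 0.11 in si1, against -0.06, -0.01, -0.04 and -0.12 in siSCR. These means spread less than those of the chaperones, and members of the arm went both ways within them. Gene by gene, the median SD (log2) was 0.30 in si2, 0.30 in si1 and 0.32 in siSCR. In the ER arm it was 0.20, 0.37 and 0.28.

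**Figure D5:**
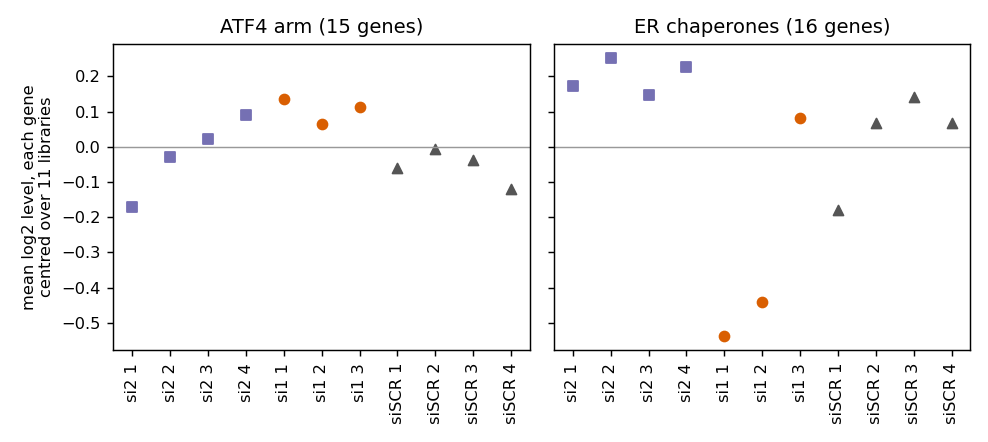
Mean log2 level of the 15 ATF4-arm genes tested in all comparisons (left) and of the 16 ER chaperones (right) in each library, each gene centred on its mean over the 11 libraries. The chaperones lie between 0.15 and 0.25 in si2 and at -0.54, -0.44 and 0.08 in si1, with siSCR 1 at -0.18 below the other controls.

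Without siSCR 1 limma called 4 of 16 ATF4-arm members (TRIB3 and SESN2 higher, SHMT2 and MTHFD2 lower) and 0 of 19 ER-arm members with si2, where 14.4% of all genes were called. Of the ER arm 5 (26.3%) then had an unadjusted p under 0.05, against 30.4% of all genes. With si1 it called 4 of 15 (TRIB3 higher, SHMT2, ATF5 and ASNS lower) and 2 of 18 (HERPUD1 higher, CALR lower), where 13.5% of all genes were called. ATF5, a bZIP factor related to ATF4, then had -0.78 (adjusted p = 0.0405) for si1, against -0.64 (adjusted p = 0.150) with all libraries. It shares 21.2% of its exon bases with NUP62 on the opposite strand.

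Other genes of the same pathways were read from lists of 42 further ATF4 pathway genes and 46 further ER folding and degradation genes. Of the ATF4 pathway genes 36 were tested. With si2 against siSCR limma called 0, where 3.12% of all genes were called. Voom called 1 (SLC7A5), and its share of all genes was of the same order as limma's. There were 2 (5.56%) at an unadjusted p under 0.05, against 19.6% of all genes, and the median was 0.02. With si1 against siSCR limma called 0, where 1.72% of all genes were called. Voom called 1 (SESN1), and 582 of all 10517 genes. There were 9 (25.0%) at an unadjusted p under 0.05, against 23.9% of all genes, and the median was -0.17. In si2 against si1 limma called 4 of 36, where 6.74% of all genes were called. The cystine transporter SLC7A11 was higher, at 48.8 ± 9.38 normalized counts in si2 and 17.5 ± 5.71 in si1 (SD, n = 4 and 3; log2 difference 1.46, SE 0.26, adjusted p = 0.0199), as was the tryptophanyl-tRNA synthetase WARS (0.77). The stress-induced SESN1 was lower, at 38.4 ± 13.0 in si2 and 141 ± 51.0 in si1 (-1.87, SE 0.36, adjusted p = 0.0243), as was TXNIP, which binds thioredoxin (-1.07).

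Of the 46 further ER genes 45 were tested. With si2 against siSCR limma called 3, where 3.12% of all genes were called. The ER oxidase ERO1A (167 ± 19.1 in si2, against 70.4 ± 31.1 in siSCR, SD, n = 4 each; 1.32, SE 0.26, adjusted p = 0.0275) and the co-chaperone DNAJC1 (0.91) rose, and the KDEL receptor KDELR2, which returns chaperones to the ER, fell (-0.74, SE 0.16, adjusted p = 0.0350). With si1 limma called 1, where 1.72% of all genes were called. SEC61A1, the pore subunit of the ER translocon, fell to 102 ± 36.4 in si1 (n = 3), against 371 ± 47.6 in siSCR (n = 4), a log2 fold change of -1.92 (SE 0.28, adjusted p = 0.0318). That call was lost without a filter, with a replicate block (adjusted p = 0.147) and on leaving out any 1 library other than siSCR 1 (0.0629 to 0.124). In si2 against si1 limma called 6, where 6.74% of all genes were called. SEC61A1 (1.77), the segregase VCP (0.91) and its cofactor UFD1 (0.96) were higher in si2, and KDELR2 (-0.92), EDEM2 (-1.06) and the disulfide isomerase TXNDC5 (-2.03) were lower. TXNDC5 shares 60.6% of its exon bases with BLOC1S5-TXNDC5 on the same strand, so its count may not hold all its reads. Each call in these further lists was lost under 3 to 12 of the 17 to 19 alternatives it was fitted in, and no fold change turned its sign.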

How the data were processed

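The submitters' processing notes name cutadapt, FastQC, STAR, HTSeq, DESeq2 and the build GRCh38. Per the labels' protocols, HTSeq quantified the reads and DESeq2 scaled them by relative log expression (RLE). Tool versions, library strand and the sequences of the siRNAs are not given in the sources used here. In both tables the authors deposited log2 values per library, made from the RLE-normalized count after adding 1. Undone, 100% of the values came within 0.01 of whole reads, the depth given in the report. The authors also deposited a log2 fold change, a mean normalized signal and p-values from DESeq2, used only where their table is named.

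Each comparison was fitted on its own libraries with limma 3.58.1 in R 4.3.3 on log2(normalized count + 1), a scale that understates the change of low genes. The low-count filter asked for a normalized count of at least 10, in a number of libraries equal to the size of the smaller group. Tests were two-sided, with Benjamini-Hochberg adjustment over all genes kept and calls at an adjusted p under 0.05. The script was tested on simulated data. Since the unit was log2, count models were not used, and voom on the recovered reads was an alternative. Others were no filter, a minimum of 50, pseudocounts of 0.5 and 5, upper-quartile rescaling, limma-trend, 1 fit of all libraries, the mitochondrial share as covariate, a replicate block and leaving out libraries. TPM used GENCODE 29 exon lengths. Of the IDs 33001 of 33080 matched GENCODE, and VARS of the further lists was not analysed here. Members with full values were ATF4, DDIT3, ASNS, XBP1, EIF2AK3, HSPA5, called members and the 6 of each arm with the largest fold change. Members, lists and tests were chosen with earlier results of these data known.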

Additional observations from a re-analysis of the deposited data

Results flagged for a closer look

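In groups of 4, a library was marked when its gap to the nearest other took up more of the group's range than Dixon's 95% critical value. Of 68 groups looked at 5 were marked, and chance marks about 1 in 20; siSCR 1 was the library in 4 of them. It was at 76.4 normalized counts for ASNS (144 to 150 in the other controls), at 951 for PDIA3 (1222 to 1276) and at 1200.5 for PDIA6 (1469 to 1500.4), the lowest control each time, and at 84.8 for HERPUD1 (62.0 to 63.1), the highest. siSCR 4 was at 104.9 for DNAJC3 (132 to 139). The effect of si2 and that of si1 on CALR differed by 1.35 on the log2 scale, the test being that of si2 against si1.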

How the results depend on the processing

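The depth of 2108546 to 5939514 reads leaves genes near 10 normalized counts, DNAJB9, EDEM1, CHAC1 and STC2 among them, with wide intervals, and with 3 or 4 libraries a group 1 library decides many calls.

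All genes called with si1 against siSCR numbered 181, and 5 without a filter, 567 at a minimum of 50, 414 at pseudocount 5, 712 with limma-trend, 582 with voom, 1141 in 1 fit and 864 without both replicate 1 libraries, an alternative chosen after seeing the data. With si2 against siSCR they numbered 320, and 108 without a filter, 482 with limma-trend, 1343 with the mitochondrial covariate and 1179 without replicate 1. In si2 against si1 they numbered 704, and 230, 1064, 1172 (voom), 167 (covariate) and 19 (without replicate 1). Where a setting named below has no all-gene count here, that count stayed of the same order as the reported one. ATF4-arm calls, 0 as reported, were for si1 2 at a minimum of 50, 2 with limma-trend, 4 in 1 fit and 1 with pseudocount 5, rescaling, voom, the covariate or without replicate 1. For si2 they were 4 with the covariate, 3 without replicate 1 and 1 at a minimum of 50, with pseudocount 5, limma-trend, voom or 1 fit. ER-arm calls for si1, 0 as reported, were 2 in 1 fit and 1 without replicate 1. In si2 against si1, 1 as reported, they were 0 without a filter, with the covariate or without replicate 1, and 2 at a minimum of 50, with rescaling, limma-trend, voom or 1 fit. Arm medians moved as well. Across all alternatives the ATF4-arm median was -0.11 to 0.22 for si1, -0.01 to 0.14 for si2 and -0.31 to 0.10 for si2 against si1. The ER-arm median was -0.31 to -0.01 for si1, 0.11 to 0.21 for si2 and 0.05 to 0.52 for si2 against si1. The causes were not tested.

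Leaving out 1 library gave 0 to 1399 calls over all genes for si1, 88 to 1496 for si2 and 120 to 803 for si2 against si1, the highest for si1 and si2 without siSCR 1. ATF4-arm calls ranged from 0 to 4, 0 to 4 and 0 to 1, and ER-arm calls from 0 to 2 for si1, 0 for si2, and 0 to 2 for si2 against si1. Calls of AKR1A1 for si1 were lost without a filter (adjusted p = 0.0871), with the replicate block (0.147) and without any 1 library other than siSCR 1 (0.0659 to 0.126).

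The main fits did not pair libraries by replicate number. With si1, libraries and same-numbered controls correlated at 0.39, 0.10 and 0.13 in their deviations from the group means. That control correlated best for si1 1, where the others gave -0.28 to -0.12, and for si1 3. For si1 2 the best was siSCR 3 (0.11). With si2 the same-numbered values were 0.10, -0.03, 0.16 and 0.08. These were the best for si2 1, si2 3 and si2 4, while si2 2 correlated best with siSCR 1 (0.10). The replicate block gave 0 calls over all genes for si1, 175 for si2 and 6 for si2 against si1, and 0 ER-arm calls in si2 against si1, where CALR had 1.32 (adjusted p = 0.115).

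Signs turned in 21 single values, none of them called. Without both replicate 1 libraries XBP1 for si1 was 0.13 and CHAC1 for si2 -0.0039. With the covariate SESN2 was 0.67 and MANF -0.47 in si2 against si1. AKR1A1 in si2 against si1 was -0.015 with rescaling and -0.10 with voom. The others came from leaving out 1 library, which gave these ranges. For si1 against siSCR they were -0.56 to 0.19 for DDIT3, -0.30 to 0.11 for XBP1 and -1.30 to 0.00031 for EDEM1. For si2 against siSCR they were -0.16 to 0.0048 for HSPA5, -0.030 to 0.30 for STC2, -0.021 to 0.23 for CHAC1, -0.010 to 0.23 for CEBPB and -0.14 to 0.34 for EDEM1. In si2 against si1 they were -0.082 to 0.29 for ATF4, -0.28 to 0.13 for XBP1, -0.68 to 0.0050 for SESN2 and -0.43 to 0.45 for AKR1A1.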
